A study of Mus musculus with 8 samples.

Results

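The microRNAs described here are the entries named mmu-miR-126a, mmu-miR-126b, mmu-miR-10a, mmu-miR-10b and mmu-miR-151 in a small RNA table of sorted mouse liver macrophages. They were chosen by name, taking both arms and any suffix of each listed stem, and 8 of 1234 entries matched. The 8 entries are both arms of miR-126a, miR-10a, miR-10b and miR-151, and no entry in the table analysed here carried the name miR-126b. The name "endothelial" for this group comes from knowledge of other samples and not from a measurement of cell types in these libraries.

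The libraries were made from Kupffer cells, the macrophages resident in the liver, which were sorted by flow cytometry from the livers of male mice. The 4 wild-type libraries (WT 35, WT 37, WT 80 and WT 82) and the 4 Trem2-deficient libraries (KO 40, KO 46, KO 88 and KO 90) each came from a separately numbered animal. The WT mice were littermates of the knockouts, and all animals of both genotypes were fed a high-fat diet for 8 weeks, starting when they were 8 weeks old, so no library represents a normal diet. TREM2 is a lipid-sensing receptor of macrophages and related cells. The promoter or allele behind the deletion is not given in the sources used here, and small RNA counts carry no measure of Trem2 mRNA, so the genotype labels could not be checked from these values.

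MicroRNAs guide silencing complexes to messenger RNAs that pair mainly with the seed, which lies near the 5′ end, and each hairpin precursor can give a mature strand from its 5′ arm (5p) and one from its 3′ arm (3p). miR-126 is encoded in Egfl7 and is best known from endothelial cells, where its 3p strand represses Spred1 and Pik3r2 and so favours signalling downstream of VEGF, and it is also found in blood stem cells and platelets. miR-10a and miR-10b are encoded in the Hox clusters and are known in endothelium and other cells, and miR-10a represses components of the NF-kB pathway in endothelial cells. miR-151 is encoded within Ptk2, which codes for focal adhesion kinase, and was studied in human liver cancer cells for effects on migration. The sorted population is bulk material, so fewer cells of a type and less RNA per cell cannot be told apart in any comparison that follows.

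The 8 mature sequences are shown because the seed decides which messages a strand can pair with, and because the members that differ by little sequence can share reads. They are printed as the deposited table gives them, 5′ to 3′, with bases 2 to 8 in capitals to mark the seed.
miR-126a-3p: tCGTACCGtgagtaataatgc
miR-126a-5p: cATTATTActtttggtacgcg
miR-10a-5p: tACCCTGTagatccgaatttgt
miR-10b-5p: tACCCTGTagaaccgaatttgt
miR-10a-3p: cAAATTCGtatctaggggaat
miR-10b-3p: cAGATTCGattctaggggaat
miR-151-5p: tCGAGGAGctcacagtctagt
miR-151-3p: cTAGACTGaggctccttgagg

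miR-10a-5p and miR-10b-5p share their seed and differ over the deposited length by 1 substitution, T12A, written from miR-10a-5p and counted from the 5′ end. The other 6 members carry a seed of their own, and no further mouse-named entry shares a seed with any member. The RefSeq table (GRCm38.p6) held 5 of the 8 members, and in each of these 5 the deposited entry was 1 base shorter at the 3′ end.

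The Mir126a hairpin shows how both miR-126a strands come from 1 transcript. It is printed from RefSeq, build GRCm38.p6, chr2:26591357-26591429 on the plus strand, with the deposited 5p arm (bases 9 to 29) and 3p arm (bases 46 to 66) in capitals.
Mir126a: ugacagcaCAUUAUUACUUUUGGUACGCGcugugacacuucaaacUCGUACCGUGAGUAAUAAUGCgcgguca

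In GENCODE M21 (GRCm38), Mir126a lies within Egfl7 on the same strand, inside an exon of a retained-intron transcript, and also within an intron of Gm20532. Mir126b is annotated on the opposite strand of the same locus, and its whole 58-base hairpin is complementary to part of the Mir126a hairpin. Mir10a lies on chromosome 11 at 96317165 to 96317274, plus strand, 993 bases outside Hoxb4. Mir10b lies on chromosome 2 at 74726070 to 74726137, plus strand, in introns of Hoxd3 and Hoxd4. Mir151 lies on chromosome 15 at 73254815 to 73254882, minus strand, in an intron of Ptk2. The build used by the authors is not given in the sources used here, and these positions come from the reference and not from the deposited table.

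The libraries held between 2129942 and 9443992 expected counts. The 8 members together took between 2.62% of the counts in KO 40 and 4.07% in WT 82. miR-126a-3p was the most abundant member by share range, at 0.974% to 1.73% of a library, and it ranked between 9 and 22 among all entries. miR-10a-5p took 0.537% to 1.45%. These are shares of counts, with no correction for how well different small RNAs ligate and amplify.

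The remaining members spanned several orders of magnitude. miR-126a-5p took 0.260% to 0.637% of counts, miR-151-5p 0.182% to 0.632% and miR-151-3p 0.127% to 0.225%. miR-10b-5p took 0.0148% to 0.0331% and miR-10a-3p 0.00407% to 0.00742%. The least abundant member was miR-10b-3p, which was listed at 0 in 3 libraries and reached 0.00127% in KO 88 (95% Wilson interval 0.000901% to 0.00178%, for counting error only). Neighbouring members in this order overlapped in share except where miR-151-3p stood above miR-10b-5p, and where miR-10b-5p stood above miR-10a-3p and miR-10a-3p above miR-10b-3p.

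**Figure D1:**
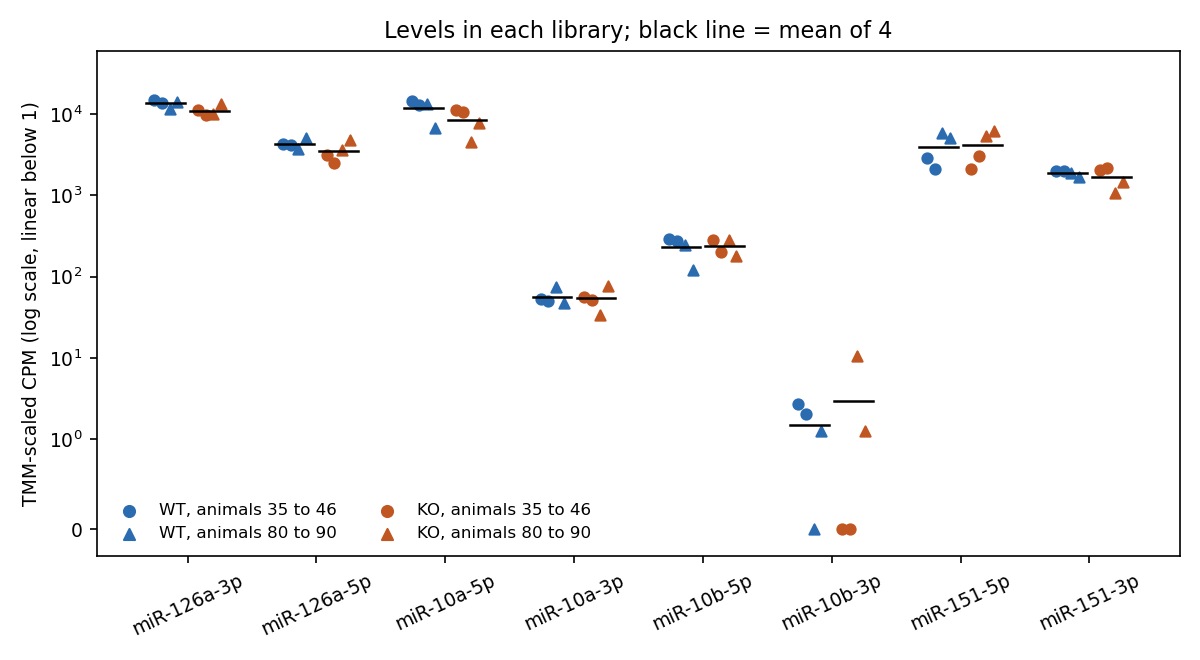
Levels of the 8 members in each library, in TMM-scaled CPM (counts scaled to a common library total) on an axis that is logarithmic above 1 and linear below it. Blue points are WT and orange points KO, circles are animals 35 to 46 and triangles animals 80 to 90, and the black line is the mean of 4 libraries. miR-126a-3p lies between 9762 and 14959 in all 8 libraries, and miR-151-5p is higher in every triangle than in every circle.

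The first comparison asked whether Trem2 deficiency was accompanied by a difference in these microRNAs. Levels are given as TMM-scaled CPM, in which a library's counts are scaled to a common total and adjusted so that the typical entry matches between libraries. No member differed between the genotypes at an adjusted p under 0.05, and none of the 627 entries tested did either (0% called). At an unadjusted p under 0.05 there were 2 of 627 entries (0.319%) and no member.

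miR-126a-3p, the guide strand best known in endothelium, stood at 14959 CPM in WT 35, 13652 in WT 37, 11632 in WT 80 and 13859 in WT 82. It stood at 11173 CPM in KO 40, 9762 in KO 46, 9978 in KO 88 and 13191 in KO 90. KO 90 lay within the WT values, so the groups overlapped, and the other KO libraries lay below every WT library. The means were 13525 ± 1386 CPM in WT and 11026 ± 1571 in KO (SD, n = 4 each). The log2 difference, KO minus WT, was -0.29 ± 0.24 (SE; 95% interval -0.83 to 0.24), with an adjusted p of 0.997 by the edgeR quasi-likelihood test with Benjamini-Hochberg adjustment.

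miR-126a-5p, the other strand of the same hairpin, represses Dlk1 in mouse endothelium. Its levels were 4281, 4118, 3718 and 5109 CPM in WT 35, 37, 80 and 82. Its levels were 3094, 2503, 3598 and 4728 CPM in KO 40, 46, 88 and 90. The KO libraries spanned both below and within the WT range, and the highest KO library, KO 90, exceeded 3 of the 4 WT libraries. The log2 difference was -0.31 ± 0.28 (SE; 95% interval -0.94 to 0.32; adjusted p = 0.997, edgeR).

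miR-10a-5p was at 14285 CPM in WT 35, 12745 in WT 37, 13192 in WT 80 and 6786 in WT 82. It was at 11305 CPM in KO 40, 10500.0 in KO 46, 4505 in KO 88 and 7649 in KO 90. On this scale WT 82 stood far below the other 3 WT libraries and below 3 of the 4 KO libraries, and KO 88 was the lowest of all. In CPM without TMM scaling, WT 82 (8465) lay above KO 90 (7432). The log2 difference was -0.47 ± 0.36 (SE; 95% interval -1.28 to 0.34; adjusted p = 0.997, edgeR).

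The other tested members had intervals that reached both sides of 0, with the same adjusted p of 0.997 by edgeR. miR-10b-5p, which shares its seed with miR-10a-5p, was at 290.5, 274, 244 and 119 CPM in WT 35, 37, 80 and 82 and at 282, 201, 278 and 178 CPM in KO 40, 46, 88 and 90. All KO libraries lay within the span of the WT libraries. Its means were 232 ± 77.8 CPM in WT and 235 ± 53.1 in KO (SD, n = 4), a log2 difference of 0.02 ± 0.37 (SE). miR-10a-3p averaged 55.9 ± 12.3 CPM in WT and 54.6 ± 17.4 in KO (SD, n = 4). For these, and for the miR-151 strands, a missed threshold leaves differences of either sign possible within the intervals.

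miR-10b-3p did not pass the filter on low counts and was not tested. Its expected counts were 7, 5, 0 and 6 in WT 35, 37, 80 and 82 and 0, 0, 33 and 8 in KO 40, 46, 88 and 90. The 33 counts in KO 88 stood above every other library.

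Over the 7 members tested, 2 were higher and 5 lower in KO, with a median log2 difference of -0.16, beside a median of -0.04 over all 627 entries, of which 53.4% were lower. No member had KO libraries that all lay on one side of all WT libraries, a pattern that 0.478% of tested entries showed with KO lower and 0.319% with KO higher. The intervals of the genotype plot show how wide the range of compatible differences was.

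**Figure D2:**
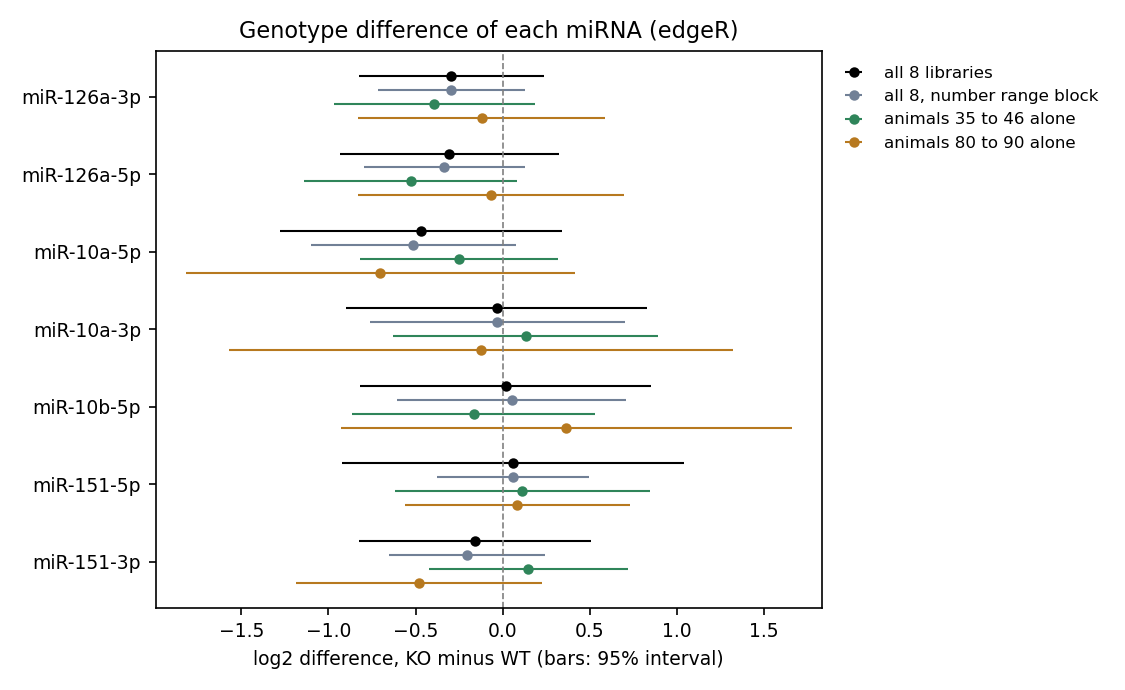
Log2 difference, KO minus WT, of the 7 members tested, from edgeR, with 95% intervals as bars. Black points use all 8 libraries, grey points add the animal number range as a block, and green and brown points use animals 35 to 46 and 80 to 90 alone. miR-126a-3p lies below 0 in all 4 fits, from -0.39 to -0.12, and every interval drawn includes 0.

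The animal numbers fall into 2 ranges, 35 to 46 and 80 to 90, each with 2 WT and 2 KO libraries, and the labels do not say what sets the ranges apart. The libraries differed strongly along this line, and 203 of 627 entries (32.4%) differed between the ranges in the edgeR fit with genotype, 104 higher (16.6%) and 99 lower (15.8%) in animals 80 to 90. Because WT and KO libraries were balanced over the ranges, the genotype differences were also computed with the range as a block. The differences were then -0.29 for miR-126a-3p, -0.33 for miR-126a-5p and -0.51 for miR-10a-5p, with an adjusted p of 0.946 for miR-126a-3p and miR-10a-5p by edgeR.

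Within animals 35 to 46, the log2 differences, KO minus WT, were -0.39 for miR-126a-3p, -0.53 for miR-126a-5p and -0.25 for miR-10a-5p. Within animals 80 to 90 they were -0.12, -0.07 and -0.70 in the same order. The other tested members had estimates of both signs. In animals 35 to 46 these were 0.15 for miR-151-3p, 0.11 for miR-151-5p, 0.13 for miR-10a-3p and -0.17 for miR-10b-5p. In animals 80 to 90 they were -0.48, 0.08, -0.13 and 0.36 in the same order. No member, and no entry tested, passed the adjusted threshold in either range (edgeR), and at an unadjusted p under 0.05 there were 9 of 576 entries in the lower range and 32 of 755 in the upper, none of them members. The test of whether the genotype difference itself differed between ranges called no entry of 627 (0%), with 30 at an unadjusted p under 0.05, and the members' adjusted p ran from 0.930 to 0.9997 by edgeR.

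The strongest pattern among the members followed the number ranges and concerned miR-151-5p. This strand was at 2865 CPM in WT 35, 2098 in WT 37, 2134 in KO 40 and 3027 in KO 46. It was at 5893 CPM in WT 80, 5032 in WT 82, 5292 in KO 88 and 6109 in KO 90. Every library of animals 80 to 90 lay above every library of animals 35 to 46, as did 21.4% of the entries tested. The log2 difference between the ranges was 1.14 ± 0.20 (SE; adjusted p = 0.00238, edgeR). Between the genotypes the same strand differed by 0.06 ± 0.44 (SE) on the log2 scale, with means of 3972 ± 1784 CPM in WT and 4141 ± 1868 in KO (SD, n = 4). That fit left out the number range, and with the range as a block the difference was 0.06 ± 0.20 (SE).

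miR-151-3p, the opposite strand of the same hairpin, was at 1989 CPM in WT 35, 1963 in WT 37, 2041 in KO 40 and 2164 in KO 46. It was at 1905 CPM in WT 80, 1660 in WT 82, 1066 in KO 88 and 1457 in KO 90. Every library of animals 80 to 90 lay below every library of the other range, as did 19.8% of the entries tested, but the difference of -0.44 ± 0.20 on the log2 scale had an adjusted p of 0.113 (edgeR). The lowest values were both KO libraries of animals 80 to 90.

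miR-10a-5p averaged 12209 ± 1667 CPM in animals 35 to 46 and 8033 ± 3686 in animals 80 to 90 (SD, n = 4). The log2 difference was -0.64 ± 0.26 (SE; adjusted p = 0.0864, edgeR), and it passed the threshold only when WT 80 was left out, at -0.89 with an adjusted p of 0.0169. WT 80, at 13192 CPM, was the only library of the 80 to 90 range within the span of the 35 to 46 libraries.

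miR-126a-3p averaged 12386 ± 2351 CPM in animals 35 to 46 and 12165 ± 1731 in animals 80 to 90 (SD, n = 4). The log2 difference was -0.01 ± 0.19 (SE; adjusted p = 0.974, edgeR), and its sign turned under other scalings, for example to 0.16 with CPM that had no TMM scaling. miR-126a-5p differed by 0.32 ± 0.21 (SE; adjusted p = 0.248) and miR-10b-5p by -0.36 ± 0.29 (SE; adjusted p = 0.373), both by edgeR. With single libraries left out, the miR-126a-5p difference ran from 0.20 to 0.47 and the miR-10b-5p difference from -0.56 to -0.13 (without WT 82). Of the 7 members tested, miR-151-5p alone was called between the ranges, beside 203 of the 627 entries tested (32.4%).

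Across all 8 libraries, miR-126a-3p varied less than most entries with a mean of at least 100 CPM. Its coefficient of variation was 15.6%, and 4.31% of the 209 such entries varied less, while the median entry varied by 39.2%. The coefficient was 21.8% for miR-126a-5p, 34.2% for miR-10a-5p and 41.7% for miR-151-5p. These are descriptions of scaled values and carry no test.

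Ratios of 2 strands counted in the same library need no library scaling. The ratio of miR-126a-3p to miR-126a-5p counts was 3.49 in WT 35, 3.31 in WT 37, 3.13 in WT 80 and 2.71 in WT 82. It was 3.61 in KO 40, 3.90 in KO 46, 2.77 in KO 88 and 2.79 in KO 90. The 3p strand exceeded the 5p strand in every library, and the genotypes overlapped, with a log2 difference, KO minus WT, of 0.04 (exact two-sided permutation test p = 0.83).

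Between the ranges the miR-126a ratio did not overlap. The mean log2 ratio was 1.84 ± 0.0982 in animals 35 to 46 and 1.51 ± 0.0925 in animals 80 to 90 (SD, n = 4). The difference of -0.33 had an exact two-sided permutation p of 0.0286, the smallest that 4 against 4 libraries allow, and an adjusted p of 0.0476 over 5 ratios. Permuting within genotypes, the smallest p that the design allows is 0.0556, so that version of the test could not pass.

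The miR-10a ratio of 5p to 3p counts was 272 in WT 35, 253 in WT 37, 178 in WT 80 and 143 in WT 82. It was 200 in KO 40, 203 in KO 46, 132 in KO 88 and 100 in KO 90. All 4 libraries of animals 80 to 90 lay below those of animals 35 to 46. The mean log2 ratio was 7.85 ± 0.224 in animals 35 to 46 and 7.08 ± 0.344 in animals 80 to 90 (SD, n = 4), a difference of -0.76 (exact permutation p = 0.0286, adjusted p = 0.0476). Between the genotypes the difference was -0.43 (exact permutation p = 0.286, adjusted p = 0.714 over 5 ratios). Within each range both KO libraries lay below both WT libraries. How many other hairpins had genotypes separated within both ranges was not counted, so this pattern cannot be called particular to miR-10a. Permuted within the ranges, the exact p was 0.0556, the smallest this design allows, with an adjusted p of 0.278. For the other 4 ratios the adjusted p of the genotype difference permuted in this way lay between 0.417 and 0.833.

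The miR-151 ratio of 3p to 5p counts was 0.694 in WT 35, 0.935 in WT 37, 0.323 in WT 80 and 0.330 in WT 82. It was 0.956 in KO 40, 0.715 in KO 46, 0.201 in KO 88 and 0.239 in KO 90. The 5p strand exceeded the 3p strand in all libraries, and by more in all libraries of animals 80 to 90. The mean log2 ratio was -0.29 ± 0.246 in animals 35 to 46 and -1.90 ± 0.347 in animals 80 to 90 (SD, n = 4), a difference of -1.61 (exact permutation p = 0.0286, adjusted p = 0.0476). The KO minus WT difference was -0.27 (exact permutation p = 0.657).

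**Figure D3:**
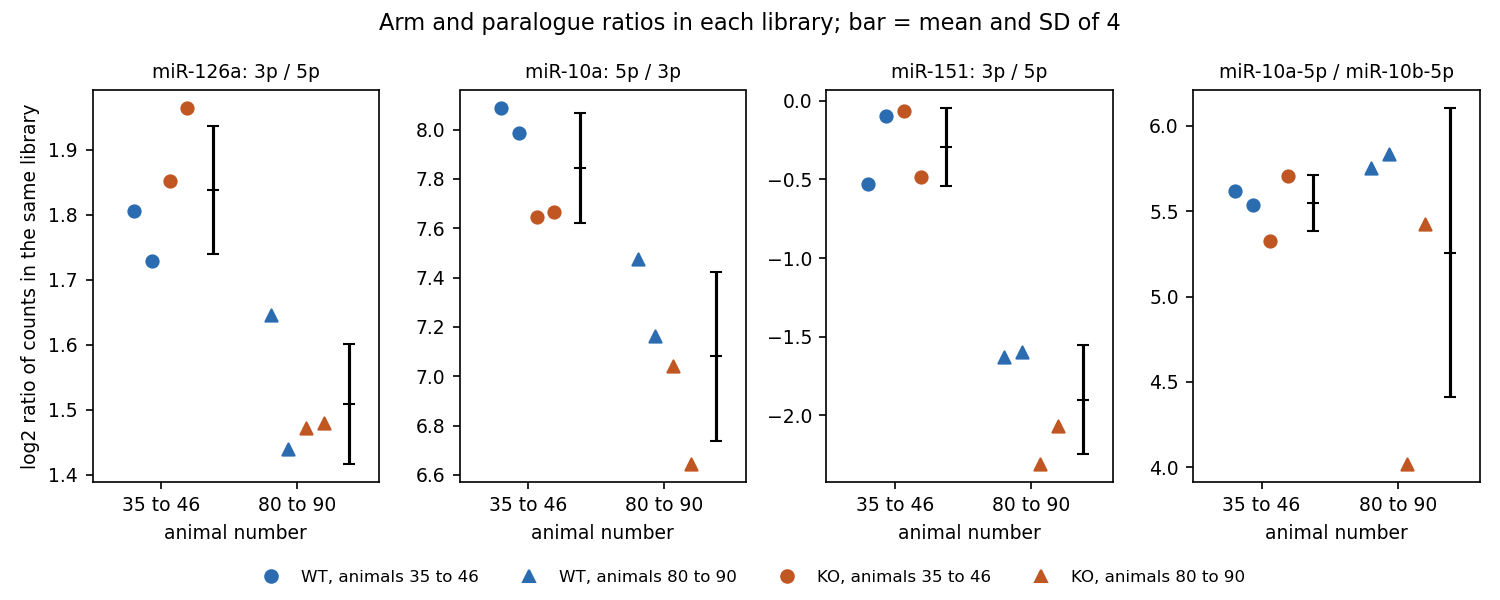
Log2 ratios of counts in the same library for the 2 arms of miR-126a, miR-10a and miR-151 and for miR-10a-5p over miR-10b-5p, plotted by animal number range. Blue is WT, orange is KO, and bars are the mean and SD of 4 libraries. The 3 arm ratios have no overlap between the ranges, while the miR-10a-5p to miR-10b-5p ratio overlaps and has KO 88 far below the rest.

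These arm shifts are read against other hairpins. Of 94 mouse microRNAs with both arms counted, 22 (23.4%) had 3p to 5p ratios that were all higher in animals 80 to 90 and 24 (25.5%) ratios that were all lower. By size of shift, miR-151 was 31st, miR-10a 59th and miR-126a 79th of the 94, and the median absolute shift was 1.12 on the log2 scale. Between genotypes the corresponding median absolute shift was 0.277, with 2 hairpins (2.13%) all higher in KO and 0 all lower. The share of hairpins with separated ranges was thus high in general, and the members' separation is not particular to them.

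**Figure D4:**
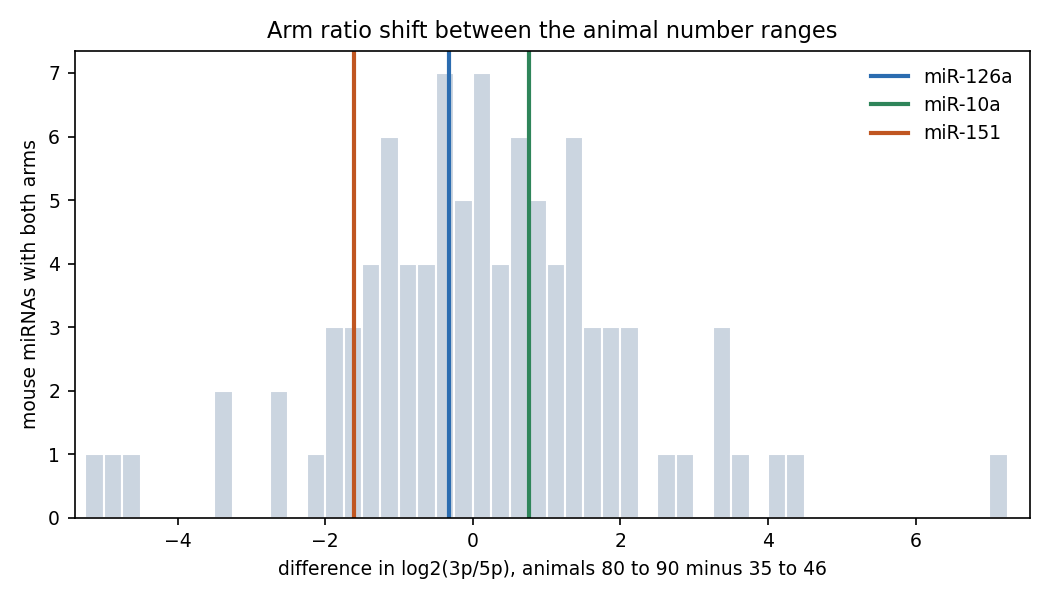
Difference in log2 ratio of 3p to 5p counts between animals 80 to 90 and animals 35 to 46 for 94 mouse microRNAs with both arms, as a histogram with 3 lines for the members. The lines stand at -0.33 for miR-126a, 0.76 for miR-10a (whose 5p to 3p ratio moved by -0.76) and -1.61 for miR-151, all inside the spread of the other hairpins.

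miR-10a-5p exceeded its paralogue miR-10b-5p in every library. The ratio of their counts was 49.2 in WT 35, 46.5 in WT 37, 54.0 in WT 80 and 57.1 in WT 82. It was 40.1 in KO 40, 52.2 in KO 46, 16.2 in KO 88 and 43.0 in KO 90. The genotypes overlapped, with a log2 difference, KO minus WT, of -0.57 (exact permutation p = 0.0857, adjusted p = 0.429). Without KO 88 the difference was -0.20. In that library miR-10b-5p made up 5.81% of the miR-10 5p counts, against 1.72% to 2.43% in the other 7 libraries. In KO 88 miR-10b-3p was also at its highest, at 33 counts.

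The miR-151-5p counts carry an uncertainty of source. They were not whole within a tolerance of 1e-06 in 8 of 8 libraries, and fractional counts arise where reads are divided among entries. miR-151-5p and miR-28a-5p share 16 bases, marked here in capitals.
miR-151-5p: tcgAGGAGCTCACAGTCTAgt
miR-28a-5p: aAGGAGCTCACAGTCTAttga

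The sum of the miR-151-5p, miR-28a-5p and miR-28c counts was whole in 6 of 8 libraries. Over the 5 entries that hold the first 12 bases of the shared stretch, the sum was not whole in WT 80, WT 82, KO 88 and KO 90. When all entries that hold the first 12 bases of that stretch were added to the miR-151 ratio's denominator, the difference between the ranges was -1.53 in place of -1.61. The counts of miR-10a-5p and miR-10b-5p were whole in 7 of 8 libraries and stood at 37370.5 and 759.5 in WT 35.

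The most abundant strands of the group, miR-126a-3p and miR-10a-5p, were also set against each other. Their count ratio was 1.05 in WT 35, 1.07 in WT 37, 0.882 in WT 80 and 2.04 in WT 82. It was 0.988 in KO 40, 0.930 in KO 46, 2.21 in KO 88 and 1.72 in KO 90. WT 82, KO 88 and KO 90 had ratios above every other library, and WT 80 was the lowest of all. The genotype difference was 0.20 (exact permutation p = 0.743) and the range difference 0.68 (exact permutation p = 0.143, adjusted p = 0.179).

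Other microRNAs with similar profiles were looked for among 165 mouse-named entries of at least 100 CPM, as a description over 8 libraries that share their scaling. For miR-126a-3p the highest Pearson correlations of log2 level were 0.575 with miR-139-5p, 0.536 with miR-99b-5p and 0.526 with miR-125b-5p. miR-503-5p and miR-199b-3p followed at 0.464 and 0.455. For miR-10a-5p the highest were 0.939 with miR-30e-5p, 0.933 with miR-186-5p and 0.919 with miR-19b-3p, followed by 0.903 with miR-145a-5p and 0.896 with miR-362-5p. The closest profiles to miR-10a-5p were closer than those to miR-126a-3p, and no name stands in both lists.

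miR-99 and miR-100 have sequences related to miR-10. miR-99b-5p ranged from 1999 to 3058 CPM and miR-99a-5p from 2111 to 3262 CPM. The entry named as a variant of miR-100-5p had the same sequence and values as miR-99a-5p, so the source of these counts is uncertain.

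Marker lists were summed as TMM-scaled CPM to place the members beside other cell types. The myeloid list, in which all 10 members were measured, summed to 244751 to 498579 in WT and 287609 to 549452 in KO, led by miR-21a-5p, with no member called between the genotypes and a median log2 difference of 0.02. By number range it summed to 420373 to 549452 in animals 35 to 46 and 244751 to 419187 in animals 80 to 90. These spans almost meet, at 420373 and 419187. Of its 10 members, 4 were called higher and 2 lower in animals 80 to 90 (edgeR). Over all 627 entries tested, 16.6% were called higher and 15.8% lower. The list members called lower included miR-21a-5p (log2 difference -0.86, adjusted p = 0.0296, edgeR), and the median log2 difference of the list was 0.60. Endothelial-enriched microRNAs outside the group, of which 11 of 12 matched and 10 were tested, summed to 15118 to 19005 in WT and 12940 to 19865 in KO, led by miR-27b-3p at 7342 CPM in WT and 7913 in KO. None of these 10 was called between the genotypes, with a median log2 difference of -0.19. By number range this endothelial list summed to 18219 to 19865 CPM in animals 35 to 46 and 12940 to 18259 in animals 80 to 90, which overlap only narrowly. Between the ranges, miR-139-5p was higher in animals 80 to 90 (log2 difference 0.86, adjusted p = 0.0174, edgeR) and miR-27b-3p lower (-0.60, adjusted p = 0.0218, edgeR), and the median was 0.05.

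No microRNA of the remaining lists was called between the genotypes. Their calls between the number ranges stand beside shares of 16.6% higher and 15.8% lower over all 627 entries tested. The hepatocyte list, all 7 of 7 measured and led by miR-122-5p, summed to 10139 to 137695 CPM in WT and 9339 to 40445 in KO, with a median log2 difference between genotypes of -0.80. In WT the spread of miR-122-5p exceeded its mean, at 34762 ± 53912 CPM against 14139 ± 12465 in KO (SD, n = 4). Its highest value, 115597 CPM, was in a single WT library, so the WT means of this list lean on that library. By number range the hepatocyte list summed to 12019 to 137695 CPM in animals 35 to 46 and 9339 to 14438 in animals 80 to 90. Of its members, 1 was called higher and 1 lower in animals 80 to 90 (edgeR), with a median log2 difference of -0.42. The stellate list, of which 4 of 6 matched, summed to 5374 to 8052 CPM in animals 35 to 46 and 3082 to 3590 in animals 80 to 90. Although its sum was lower in animals 80 to 90, 1 of its members was called higher there and 2 lower (edgeR), with a median of -0.67. The erythroid list, 4 of 4 measured and led by miR-451a, summed to 5060 to 7387 CPM in animals 35 to 46 and 636 to 2516 CPM in animals 80 to 90. In animals 80 to 90, 0 of its members were called higher and 2 lower (edgeR), with a median of -0.94. The epithelial list, 7 of 7 measured and led by miR-200c-3p, summed to 290.1 to 541 CPM in animals 35 to 46 and 487 to 795 in animals 80 to 90, and the lymphocyte list, 3 of 3 measured and led by miR-181a-5p, to 1949 to 2375 and 2726 to 3941. Of the epithelial members, 1 was called higher and 0 lower in animals 80 to 90 (edgeR), but their median log2 difference was -0.23. Of the lymphocyte members, 1 was called higher and 0 lower, with a median of 0.54. The lymphocyte list includes miR-28a-5p, which shares 16 bases with miR-151-5p, so the source of its counts is uncertain too. Of the endothelial and hepatocyte markers, miR-218-5p and miR-802-5p were at 0 in at least 1 library. By genotype, the stellate list summed to 3082 to 6395 CPM in WT and 3207 to 8052 in KO (median log2 difference -0.09), and the erythroid list to 636 to 7387 and 1110 to 5625 (0.48). The epithelial list summed to 403 to 795 CPM in WT and 290.1 to 615 in KO (-0.17), and the lymphocyte list to 2074 to 3941 and 1949 to 3279 (0.0048). The WT and KO sums overlapped for all 7 lists. The part of these lists, the myeloid list included, in the genotype and range differences of the members was not tested, and these lists name microRNAs that are enriched in a cell type and not exclusive to it.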

How the data were processed

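Small RNA was sequenced from 4 WT and 4 KO Kupffer cell libraries, prepared with the Illumina TruSeq small RNA kit, per the labels' protocols. The deposited raw columns hold expected counts per small RNA entry, per the file headers, and 12.0% of the values are not whole within 1e-06. The deposited normalized columns hold a signal equal to the raw value times 1 constant per library. Which trimming, aligner, microRNA database and build were used is not given in the sources used here. 0 value columns lacked a sample. In the running index 2 positions had no entry and were not analysed.

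Expected counts were rounded, filtered with filterByExpr, scaled with TMM and tested with the quasi-likelihood test of edgeR 4.0.16 (R 4.3.3) over all entries with Benjamini-Hochberg adjustment at 0.05. DESeq2 1.42.0 and limma 3.58.1 on log2(signal + 1) of the deposited normalized columns were alternatives, beside other scalings, filters and left-out libraries. Log2 ratios of counts, with 0.5 added, were compared by exact two-sided permutation tests, enumerated with NumPy 2.4.6, where both strands averaged at least 10 counts, which left out the miR-10b arms. Scripts were tested on simulated data. p-values measure the spread between separately numbered animals. For the genotype tests without a block, that spread includes the difference between the number ranges. The common dispersion, the edgeR measure of spread, was 0.58 with genotype alone and 0.28 with genotype and number range. The columns used hold reads without molecular identifiers, and the Wilson intervals (95%, SciPy 1.17.1) therefore cover counting error only.

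The members, the marker lists and the number range comparison were chosen with earlier results of these data known. Named microRNAs were every member, mouse entries sharing a seed, the miR-99 and miR-100 entries, the most abundant entry of each marker list, and the 5 entries of at least 100 CPM with the highest correlation to miR-126a-3p and to miR-10a-5p. miR-28a-5p, miR-28c, miR-139-5p, miR-218-5p and miR-802-5p were named after their values were seen, and of these miR-139-5p also falls under the correlation rule.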

Additional observations from a re-analysis of the deposited data

Results flagged for a closer look

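miR-10a-5p in WT 82 stood far from the other 3 WT libraries: its gap to the nearest of them was 0.847 of the group's whole log2 range, at 6786 CPM against 12745 to 14285 CPM. In all, 24 groups of 4 libraries were examined in this way, of which chance would mark about 1.2, and this was the only 1 marked. The size of the gap depends on the scaling. In CPM without TMM scaling, WT 82 was nearer to the other WT libraries, at 8465 against 11053 to 14521 CPM.

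miR-151-3p differed in opposite directions in the animal number ranges. The KO minus WT difference in mean log2 level was -0.51 in animals 80 to 90 and 0.09 in animals 35 to 46, with every KO library of one range below and of the other above the WT libraries. The share of tested entries with such opposite separation was not counted, so the pattern cannot be called particular to miR-151-3p. The difference between the ranges was itself tested and was not called (adjusted p = 0.930, edgeR interaction term).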

How the results depend on the processing

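Genotype differences of miR-126a-3p, miR-126a-5p and miR-10a-5p kept their sign in all 18 alternatives run and were called in none of them; with single libraries left out they ran from -0.40 to -0.24, -0.49 to -0.20 and -0.67 to -0.25 (without KO 88). With animals 35 to 46 alone the sign turned for miR-151-3p (0.15), miR-10b-5p (-0.17) and miR-10a-3p (0.13), and with no filter for miR-10b-5p (-0.0042). With single libraries left out, the ranges were -0.32 to 0.019 for miR-151-3p (above 0 without KO 88), -0.21 to 0.14 for miR-10b-5p, -0.19 to 0.30 for miR-151-5p and -0.25 to 0.14 for miR-10a-3p.

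Between the animal number ranges, with single libraries left out, miR-151-3p lay at -0.52 to -0.30 and miR-10a-5p at -0.89 to -0.47, and miR-151-5p stayed called in all 15 alternatives run. The miR-126a-3p difference turned to 0.092 with no filter, 0.079 with DESeq2 size factors or DESeq2, 0.16 without TMM and 0.060 with limma-trend, and lay at -0.12 to 0.12 with single libraries left out. For miR-10a-3p that span was -0.093 to 0.35. With single libraries left out, entries called between the ranges numbered 129 to 222 (129 without WT 37). Among the other alternatives the most were called by DESeq2, at 276. The interaction called 10 with no filter. DESeq2 called 0 entries between genotypes (6 at an unadjusted p under 0.05), limma-trend 0 (3) and the number range block 0 (17).

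Leaving out single libraries gave KO minus WT log2 ratios of -0.66 to 0.091 for the miR-151 arms, -0.053 to 0.11 for the miR-126a arms, -0.60 to -0.23 for the miR-10a arms, -0.76 to -0.20 for miR-10a-5p over miR-10b-5p and -0.032 to 0.46 for miR-126a-3p over miR-10a-5p. Between ranges it gave -0.37 to -0.29 for miR-126a, -0.90 to -0.62 for miR-10a, -1.71 to -1.47 for miR-151 and -0.48 to 0.12 for miR-10a-5p over miR-10b-5p. The exact permutation test of 4 against 3 libraries cannot go below 0.0571, and permuting within genotypes left -0.33, -0.76 and -1.61 at an adjusted p of 0.0926. The range tests of ratios and the sum with miR-28 entries were chosen after seeing the data. The causes of these changes were not tested.

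No paired analysis was possible because the labels name no litter or other link between a WT and a KO animal.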

Other observations

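Outside the mouse-named entries, 3 entries named from other species held a member's seed or a 12-base stretch of a member. The entry named hsa-miR-151b held 55 to 599 expected counts per library and the entry named oga-miR-28b held 7 to 183, and both share the seed of miR-151-5p. The entry named oan-miR-126-5p held 0 to 7. In all 8 libraries these counts were small beside the 5152 to 47864 expected counts of miR-151-5p and the 5539 to 30194 of miR-126a-5p.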
